A study of Mus musculus with 12 samples.

Results

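Vehicle-treated primary mouse chondrocytes were compared between 24 and 6 hrs of culture, on the probe sets whose 3 arrays at 6 hrs all lay at least 2-fold from all 3 arrays at 24 hrs. Of the 45101 probe sets of the array, 20337 reached a mean intensity of 50 at either time, and 83 of these met that limit, 60 higher and 23 lower at 24 hrs. These are 0.295% and 0.113% of the probe sets with such a mean. With each array centred on its median the limit gave 33 higher and 36 lower probe sets, and with quantile normalization 28 and 45, so that the share of higher ones was 72.3% as deposited, 47.8% centred and 38.4% with quantile normalization. All 83 kept their sign under both scalings, which moved the median log2 difference of all 20337 from 0.13 to -0.02 and 0.01. The differences smallest in size among the 83, 1.20 and -1.21, were far larger than these shifts. The 83 probe sets belonged to 73 genes with a single symbol, 54 higher and 19 lower, and 5 and 4 of the probe sets had no single symbol.

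The cells were freed with trypsin and collagenase from the tibiae, femurs and humeri of E15.5 embryos of CD1 mice, seeded as monolayers in medium with 10% fetal bovine serum and left overnight. All cultures then received fresh medium with 0.25 mM ascorbic acid and 1 mM beta-glycerophosphate, which held DMSO in the vehicle cultures and 100 nM dexamethasone, a synthetic glucocorticoid (DEX), in the others. RNA of 12 cultures was hybridized to Affymetrix MOE 430 2.0 arrays, 3 for each treatment and time, numbered 1, 2 and 4 in the labels. The study used 3 independent cell isolations, and whether a number marks the same isolation at both times is not stated. The 24 hrs arrays were hybridized on days 1 and 2 and the 6 hrs arrays on days 3 and 4, so time and hybridization day cannot be told apart, and replicate 4 at 6 hrs, alone on day 4 with its DEX counterpart, was also washed with another protocol.

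Chondrocytes build the cartilage matrix of the growth plate, and cells newly freed from that matrix and fed with serum meet growth factors, nutrients and a substrate that they did not have in the bone. Serum induces short-lived genes for growth factors and cytokines, such as Hbegf, a ligand of the EGF receptor, whereas cells that use up amino acids switch on genes through the transcription factors ATF4 and CHOP, Chac1 and Nupr1 among them. The markers of the labelled cell type were present, since all 8 chondrocyte markers had a mean of at least 50. Their summed intensity ranged from 18672 to 32634 over the vehicle arrays at 6 hrs and from 22464 to 31685 at 24 hrs, so that the sums overlapped.

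Promoter sequence is shown for the pair of genes of the amino acid response among the 83 probe sets and for Trmt61a, whose arrays lay at least 2-fold apart between the times in both treatments. Capitals mark TTGCATCA in the first 2 sequences, which is TGATGNAA on the other strand, the C/EBP-ATF response element (CARE), and CACGTG (E-box) in Nupr1. In Trmt61a they mark TGACGTCA, the cAMP response element (CRE). Each sequence is the 250 bases before the RefSeq gene start in GRCm38.p6, read along the gene's strand, at chr2:119350992-119351241 on the plus strand for Chac1, chr7:126625471-126625720 on the minus strand for Nupr1 and chr12:111677855-111678104 on the plus strand for Trmt61a.
Chac1: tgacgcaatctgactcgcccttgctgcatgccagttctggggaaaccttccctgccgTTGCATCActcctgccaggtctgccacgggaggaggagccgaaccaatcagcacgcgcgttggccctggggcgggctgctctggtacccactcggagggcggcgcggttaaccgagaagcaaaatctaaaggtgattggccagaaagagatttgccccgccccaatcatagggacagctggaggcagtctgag
Nupr1: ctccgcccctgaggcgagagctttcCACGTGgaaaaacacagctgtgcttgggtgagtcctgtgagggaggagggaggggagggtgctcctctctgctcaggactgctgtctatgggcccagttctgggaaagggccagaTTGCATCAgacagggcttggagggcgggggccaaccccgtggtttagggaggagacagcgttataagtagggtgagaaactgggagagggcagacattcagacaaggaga
Trmt61a: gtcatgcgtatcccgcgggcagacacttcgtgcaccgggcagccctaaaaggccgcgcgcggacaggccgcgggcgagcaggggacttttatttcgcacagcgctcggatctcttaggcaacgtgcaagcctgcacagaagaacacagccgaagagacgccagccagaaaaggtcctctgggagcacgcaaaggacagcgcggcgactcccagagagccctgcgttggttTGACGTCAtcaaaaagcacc
The CARE began 193 bases before the start of Chac1 and 110 bases before that of Nupr1. Searched on both strands in windows from 250 bases before to 50 bases after the start, it was found for 3 of the 44 higher genes with a RefSeq window (Chac1, Nupr1 and 4933416O17Rik), for 0 of the 15 lower genes and in 4.06% of all 27025 windows. The CRE was found for 0 of 44 and 2 of 15 genes (Dtl and Trmt61a) and in 1.88% of all windows, and the E-box for 4 and 2 genes and in 7.24%. The AP-1 motif TGANTCA was found for 4 and 1 genes and in 7.93%. The motifs were chosen after the genes were known, and a match is no evidence of binding.

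Signs of RNA quality moved with time. Controls for 18S ribosomal RNA, which a labelling from the poly(A) tail should leave out, were 3 of the 23 lower probe sets. The one for the 3′ end was at 907, 635 and 316 in vehicle at 6 hrs and 25.2, 46.7 and 32.7 at 24 hrs. With DEX it was at 760, 808 and 54.4 at 6 hrs and 25.0, 40.4 and 47.1 at 24 hrs, so that replicate 4 was high in vehicle and near the 24 hrs arrays with DEX. The log2 difference between the 3′ and 5′ probe sets of Gapdh, which widens when RNA is broken, was 0.70, 0.58 and -0.32 in vehicle at 6 hrs and -0.31, -0.32 and -0.22 at 24 hrs. On this measure replicate 4 was like the 24 hrs arrays. The part of RNA quality in the differences was not tested.

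**Figure D1:**
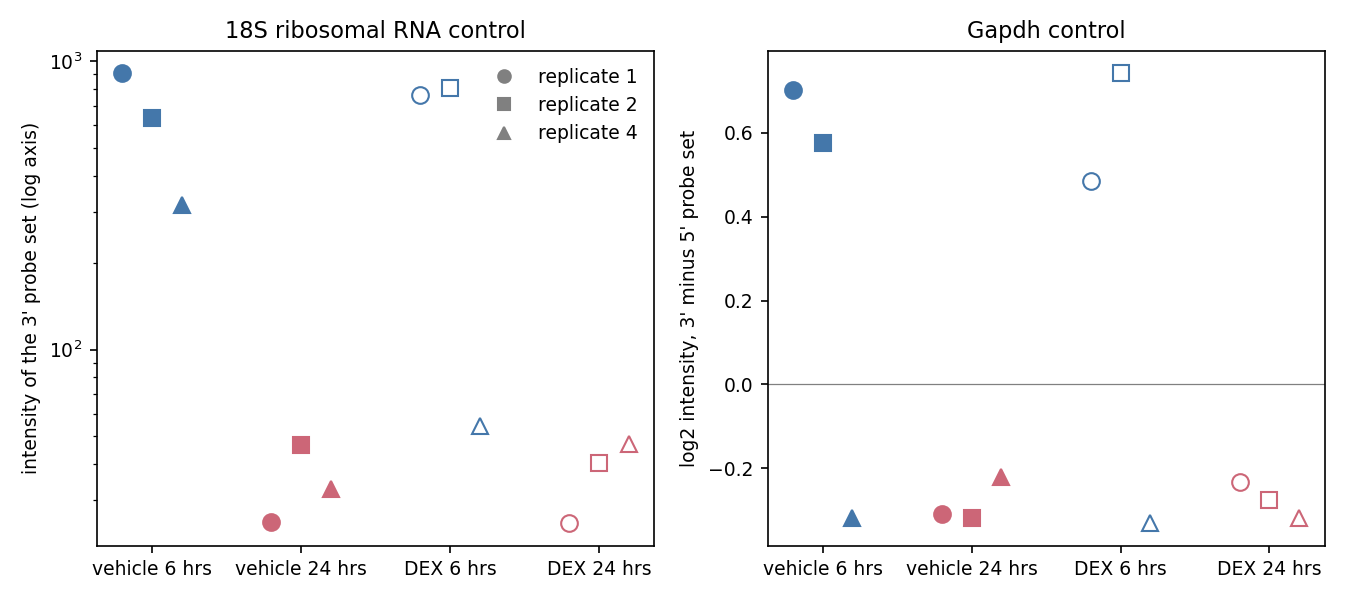
Intensity of the 3′ probe set of the 18S ribosomal RNA control on a log axis (left) and the log2 difference between the 3′ and 5′ probe sets of Gapdh (right), 1 point per array. Replicates 1 and 2 at 6 hrs lie above all other arrays in both panels, and vehicle replicate 4 at 6 hrs lies between them and the rest for 18S only.

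The 6 DEX arrays, which had no part in choosing the probe sets but were hybridized on the same days, gave the same measure again. Their 6 hrs replicates 1 and 2 also shared the signs of RNA quality seen in vehicle, with Gapdh differences of 0.49 and 0.74. Agreement between the treatments therefore cannot tell time from hybridization day or RNA quality. With DEX, 86 and 26 of 20034 probe sets met the limit (0.429% and 0.13%), and among the 60 higher and 23 lower probe sets of vehicle these were 5 and 5. The 5 higher ones were C1qtnf1, Angptl1, Narf, Chac1 and Nupr1, and the 5 lower ones Zc3h13, Esm1, Trmt61a, Hbegf and Sox11. The mean difference with DEX had the same sign as in vehicle for 58 of the 60 and for 23 of the 23, where these signs were found for 54.4% and 45.6% of all probe sets tested in vehicle. It reached 2-fold for 34 of 60 and 19 of 23, against 10.1% and 2.52% of all. With either scaling, 54 of the 60 and 23 of the 23 kept the sign of vehicle.

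**Figure D2:**
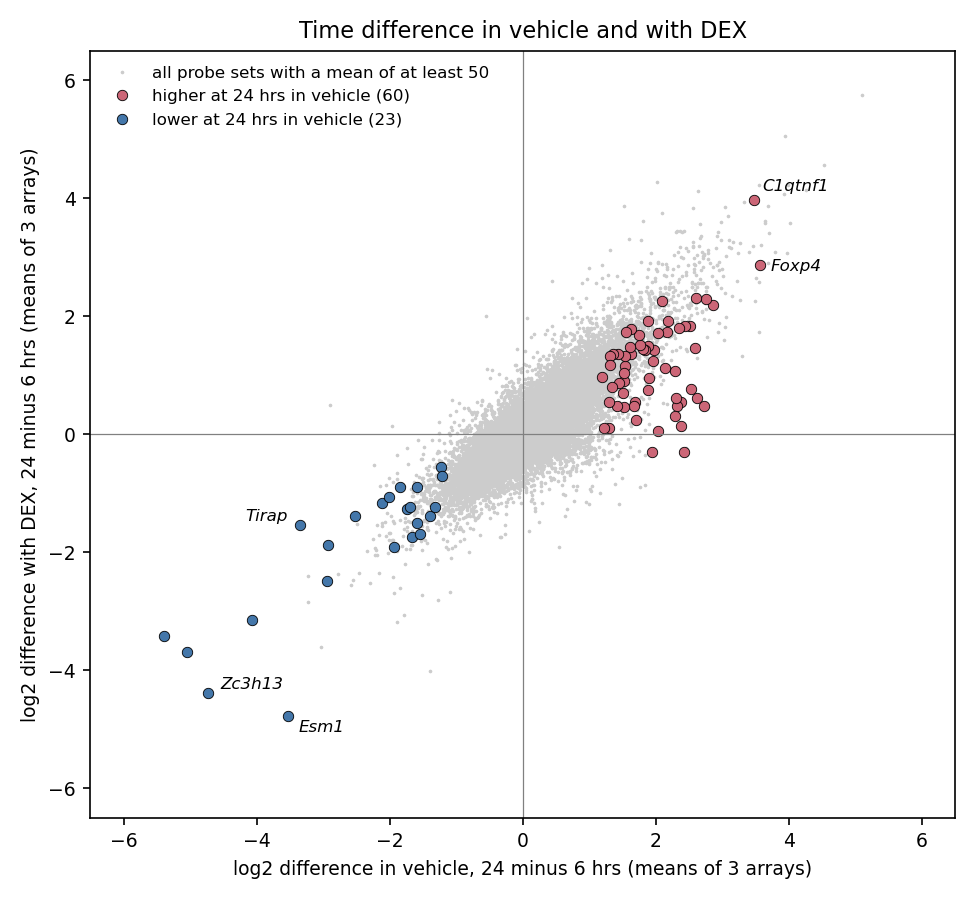
Each point is a probe set, with its mean log2 difference of 24 minus 6 hrs in vehicle on the x axis and with DEX on the y axis, 3 arrays per group. Of the coloured points, which met the limit in vehicle, 58 of 60 higher ones lie above 0 on the y axis and 23 of 23 lower ones below it; grey points are all 20337 probe sets that reached a mean of 50 in vehicle.

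**Figure D3:**
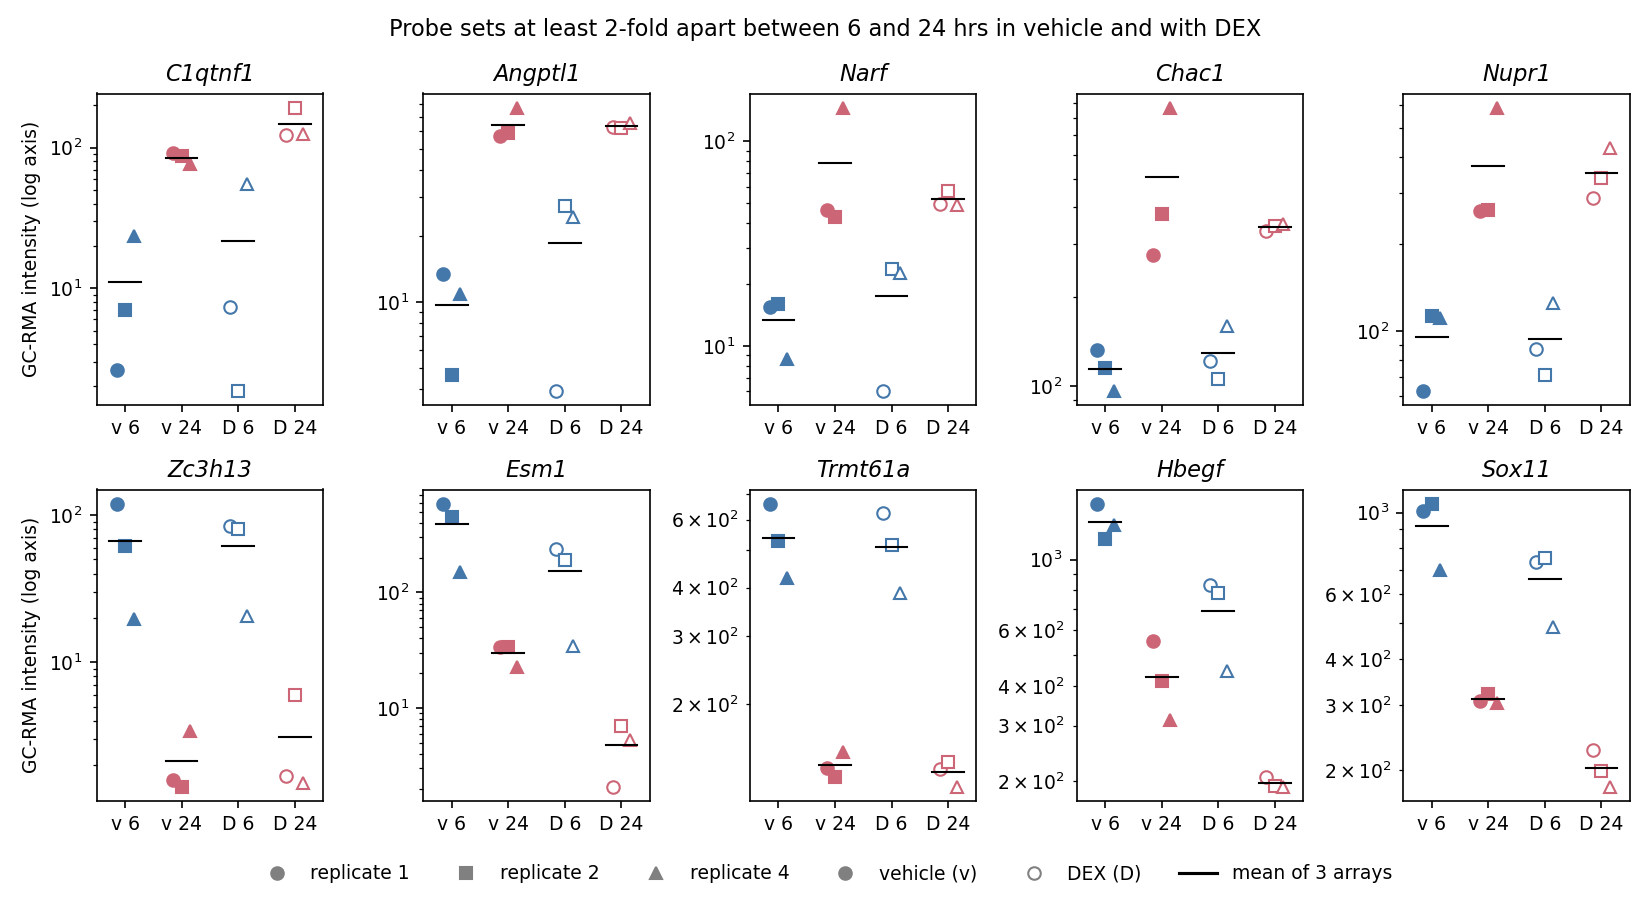
Intensities on a log axis of the 10 probe sets that were at least 2-fold apart between the times in vehicle (filled) and with DEX (open), 1 point per array and a line at the mean of 3. In each panel the 3 arrays at 6 hrs lie apart from the 3 at 24 hrs within both treatments, and for Hbegf DEX replicate 4 at 6 hrs lies within the range of vehicle at 24 hrs.

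A pair of genes of the amino acid response was higher at 24 hrs. Chac1, an enzyme that degrades glutathione, had intensities of 132, 115 and 96.6 at 6 hrs and 276, 378 and 866 at 24 hrs in vehicle (replicates 1, 2 and 4, in this order throughout). Its 24 hrs arrays were all above those at 6 hrs, with replicate 4 far above the other 2. The log2 difference of the means was 1.98 ± 0.51 (standard error of the difference, n = 3 per time, as for all differences below). In vehicle the arrays that gave these errors had also chosen the probe sets, so errors may be too small and differences too large. With DEX Chac1 had 122, 106 and 160 at 6 hrs and 334, 346 and 352 at 24 hrs. Its replicate 4 at 24 hrs did not stand apart there. Nupr1, a small chromatin-associated stress protein, had 62.6, 113 and 111 at 6 hrs and 261, 262 and 589 at 24 hrs, again with replicate 4 highest, and a log2 difference of 1.89 ± 0.48. With DEX it was 86.8, 70.8 and 125 at 6 hrs and 288, 339 and 429 at 24 hrs, and for Nupr1 every 24 hrs array of either treatment was at least 2-fold above every 6 hrs array of either. The probe set of Nupr1 with the higher signal had 137, 130 and 207 at 6 hrs and 370.0, 356 and 854 at 24 hrs and fell short of the limit because of replicate 4 at 6 hrs.

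Of the 21 measured genes on the list for this response, 1 met the limit by its brightest probe set and Nupr1 by a dimmer one. In vehicle none of the 21 met it in the lower direction. By the brightest probe set, 0.258% of all measured genes met it higher and 0.0922% lower. The median difference of the list was 0.13, against 0.05 over all 10843 measured genes, so the list as a whole lay close to the array's median. Sesn2, a regulator of growth signalling, had a difference of 1.09 without meeting the limit, and 1.36 against replicate 4 at 6 hrs alone. Cebpb, a transcription factor, had 2.05, but replicate 4 at 6 hrs (1442) was close to the lowest 24 hrs array (1513), and against it alone the difference was 0.24. For Atf5, another factor of the response, the values were likewise 1.07 and 0.11. Asns, the asparagine synthetase, had 0.05. Among the vehicle arrays at 24 hrs, replicate 4 was the highest for all measured genes of the list except Atf5, Cebpb and Sesn2. Other genes of the list had lower means: Slc7a3 and Slc7a1 had -0.94 and -0.87 in vehicle and -1.57 and -1.41 with DEX. In vehicle the times overlapped for both. Slc7a3 had 480, 647 and 404 at 6 hrs and 160, 186 and 592 at 24 hrs, with replicate 4 far above the others at 24 hrs. Against replicate 4 at 6 hrs alone Slc7a3 and Slc7a1 had -0.64 and 0.08 in vehicle. With DEX Slc7a3 met the limit in the lower direction, with 595, 677 and 489 at 6 hrs and 206, 206 and 177 at 24 hrs. Like all genes of the lists that are named below without meeting the limit, these were picked after their values were seen.

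Secreted factors stood in both directions. Vegfd, a growth factor for lymphatic vessels, had 15.2, 22.2 and 57.1 at 6 hrs and 205, 137 and 156 at 24 hrs in vehicle, a log2 difference of 2.61 ± 0.59, and its other probe sets had 1.19 and 1.22. With DEX its 6 hrs arrays spanned 27.6, 51.9 and 183, and replicate 4 was close to the 24 hrs arrays at 421, 213 and 359. C1qtnf1, a secreted protein with a C1q domain, was chosen after its values were seen, as were Angptl1 and Narf. C1qtnf1 was at 2.61, 7.04 and 23.5 at 6 hrs and 91.8, 86.7 and 76.4 at 24 hrs in vehicle and 7.4, 1.87 and 55.3 at 6 hrs and 123, 193 and 126 at 24 hrs with DEX, with log2 differences of 3.49 and 3.98. Angptl1, a protein related to the angiopoietins, was at 13.4, 4.62 and 10.8 at 6 hrs and 57.1, 59.2 and 76.9 at 24 hrs in vehicle and, with DEX, at 3.94, 27.4 and 24.4 at 6 hrs and 62.8, 62.1 and 65.2 at 24 hrs. Each of the 6 arrays of either treatment at 24 hrs was at least 2-fold above each of the 6 at 6 hrs. Narf, which binds prelamin A, is named here outside the secreted factors. It was at 15.4, 16 and 8.68 at 6 hrs and 46.1, 42.6 and 146 at 24 hrs in vehicle, and replicate 4 at 24 hrs was again the highest. The 6 hrs values of these 3 probe sets were under 50 on all vehicle arrays, so the sizes of their ratios are uncertain. A brighter probe set of Angptl1 had 103, 161 and 70.9 at 6 hrs and 170.0, 147 and 199 at 24 hrs in vehicle, where the times overlapped, and a difference of 0.69.

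Among the lower secreted factors, Hbegf had 1503, 1164 and 1283 at 6 hrs and 553, 414 and 312 at 24 hrs in vehicle and 832, 785 and 447 at 6 hrs and 206, 194 and 193 at 24 hrs with DEX. The 2 times did not overlap within either treatment, and the log2 differences were -1.66 ± 0.26 and -1.75. Another probe set of Hbegf had 623, 535 and 477 at 6 hrs and 222, 245 and 118 at 24 hrs, just outside the limit at 1.95-fold. Of the 7 measured EGF receptor ligands and receptors Hbegf alone met the limit, which 0.0922% of all 10843 measured genes met in the lower direction. Ereg, another ligand, had -1.38, and -0.86 against replicate 4 at 6 hrs alone. Erbb2, a partner receptor, had 1.40, but its replicate 4 at 6 hrs (193) lay within the 24 hrs range (189 to 225), and against that array alone the difference was 0.08. Tslp, a cytokine that acts on dendritic cells, had 219, 105 and 148 at 6 hrs and 30, 9.14 and 27.1 at 24 hrs, a difference of -2.94 ± 0.63, and with DEX 147, 88.1 and 54.2 at 6 hrs and 30, 3.95 and 34.4 at 24 hrs, where replicate 4 at 6 hrs fell short of the limit. It was the only one of 19 measured chemokines and cytokines that met the limit, against 0.258% higher and 0.0922% lower of all 10843 measured genes. Others on that list with a difference below -1, not meeting it, were Ppbp (-1.85), Il11 (-1.73), Tnfsf11, the ligand RANKL (-1.42), and Cxcl1, a chemokine for neutrophils (-1.003). Against replicate 4 at 6 hrs alone they had -0.73, -2.06, -0.32 and 0.26, so that Cxcl1 changed sign and Il11 did not come closer to 0.

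Esm1, a proteoglycan secreted by endothelial and other cells, had 587, 447 and 150.1 at 6 hrs and 33.4, 34 and 22.5 at 24 hrs in vehicle and 236, 190 and 34.7 at 6 hrs and 2.09, 7 and 5.24 at 24 hrs with DEX. All 3 arrays at 6 hrs were above those at 24 hrs in each treatment, and the differences were -3.53 ± 0.63 and -4.77. Of the 11 endothelial markers 4 had a mean of at least 50, Pecam1, Cdh5, Tek and Tie1 among the 7 below it, and the summed intensity of all 11 was 403 to 500.0 at 6 hrs and 426 to 475 at 24 hrs, so that the sums overlapped. Among the 4, all 24 hrs arrays lay below those at 6 hrs for Flt1, a VEGF receptor (64.3 ± 9.87 to 27.3 ± 13.1, mean and SD, n = 3), and above them for Egfl7, a secreted endothelial protein (64.7 ± 9.57 to 98.9 ± 12.5), where 33.5% of all probe sets tested did not overlap, and the part of endothelial cells was not tested. Procr, the receptor of protein C, had 443, 304 and 263 at 6 hrs and 111, 114 and 43 at 24 hrs, a difference of -2.01 ± 0.51, and with DEX its replicate 4 at 6 hrs (80.3) lay within the 24 hrs range.

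Regulators of transcription and RNA stood on both sides. Sox11, a transcription factor of progenitor cells, had 1008, 1058 and 696 at 6 hrs and 308, 321 and 304 at 24 hrs in vehicle and 736, 752 and 490.3 at 6 hrs and 227, 199 and 180.2 at 24 hrs with DEX, and the times did not overlap in either. Its differences were -1.54 ± 0.19 and -1.69. The 5 other measured probe sets of Sox11 were divided, with differences from -1.12 to 0.83, 3 below 0 and 2 above. Trmt61a, a subunit of a tRNA methyltransferase, had 660.0, 528 and 424 at 6 hrs and 137, 130 and 150.3 at 24 hrs and with DEX 623, 515 and 388 at 6 hrs and 136, 142 and 122 at 24 hrs. The spread was narrow at 24 hrs and wider at 6 hrs, where values fell from replicate 1 to replicate 4 in both treatments. The differences of Trmt61a were -1.93 ± 0.19 and -1.91. Zc3h13, a component of the complex that methylates adenosine in mRNA, was chosen after its values were seen. Its probe set with 120, 61.7 and 19.6 at 6 hrs and 1.58, 1.43 and 3.4 at 24 hrs in vehicle was at 84.3, 80.6 and 20.7 at 6 hrs and 1.69, 6.03 and 1.52 at 24 hrs with DEX, but a brighter probe set of the gene was at 132, 97.7 and 109 at 6 hrs and 116, 134 and 105 at 24 hrs in vehicle, with a difference of 0.07.

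Chd4, a chromatin remodelling ATPase, had 276, 177 and 126 at 6 hrs and 58.7, 52 and 55.1 at 24 hrs, with a difference of -1.73 ± 0.33, against -0.24 at its brighter probe set. Rrp15, needed to make the large ribosomal subunit, had 1514, 1119 and 721 at 6 hrs and 315, 348 and 332 at 24 hrs and a difference of -1.69 ± 0.31. It was not on the list of 27 ribosome biogenesis genes, of which none met the limit, against 0.258% higher and 0.0922% lower of all measured genes. The median difference of that list was -0.42 in vehicle and -0.45 with DEX. Against replicate 4 at 6 hrs alone that median was -0.45 and -0.39, and the median of all measured genes was 0.06 and 0.00133. Ing5, a reader of histone methylation, and Prrc2c, a stress granule protein, were just inside the limit, at -1.22 and -1.21, with -0.48 and -0.59 at the brightest others. A 2-fold spacing was met at 2.02-fold by Ing5, 2.03-fold by Prrc2c and 2.07-fold by Rrp15, and missed at 1.98-fold by a probe set without a single symbol and at 1.95-fold by Tmie. On the higher side it was met at 2.01-fold by Fkbp4 and 2.02-fold by Foxd1 and Stac2, and missed at 1.98-fold by Steap3 and 1.97-fold by Rusc2 and Ly6i.

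On the higher side, Nfix, a nuclear factor I protein, had 32.7, 19.9 and 82.7 at 6 hrs and 278, 215 and 281 at 24 hrs, and replicate 4 at 6 hrs was the highest of the 6 hrs arrays. Its difference was 2.76 ± 0.61, but the brightest of 3 other probe sets had -0.06. Zfp36l1, which promotes the decay of AU-rich mRNAs, had 38.7, 42.7 and 146 at 6 hrs and 352, 329 and 338 at 24 hrs and a difference of 2.45 ± 0.62, against -0.04 at its brighter probe set. Cirbp, the cold-inducible RNA-binding protein, had 61.7, 80.3 and 116 at 6 hrs and 349, 330.2 and 343 at 24 hrs, with no other measured probe set and a difference of 2.04 ± 0.26. With DEX Cirbp was at 44, 50 and 203 at 6 hrs and 309, 249 and 204 at 24 hrs, and replicate 4 at 6 hrs was close to the lowest array at 24 hrs. Ddx39a, an RNA helicase of mRNA export, had a difference of 2.29 ± 0.33 at a dim probe set, while its 4 others lay between -0.62 and -0.17. With DEX that dim probe set had 0.31, and the times overlapped. Tulp3, an adaptor of ciliary transport, had 2.10 (0.55 at its brightest probe set). Foxd1, a forkhead factor, was just inside the limit at 2.02-fold with 50.7, 76.4 and 107 at 6 hrs and 216, 223 and 215 at 24 hrs.

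Several signalling genes were on the higher side. Src, the tyrosine kinase, had 40, 59 and 115 at 6 hrs and 289, 237 and 235 at 24 hrs, a difference of 1.97 ± 0.45, and its brighter probe set had 1.00. Capn1, a calcium-dependent protease, had 17.7, 43.7 and 67.1 at 6 hrs and 152, 181 and 160 at 24 hrs and a difference of 2.13 ± 0.57, with 3.24 at its other probe set, which missed the limit because of replicate 4 at 6 hrs. Pld1, phospholipase D1, had 1.84 (-0.04 at its brightest probe set), Pde2a, a cyclic nucleotide phosphodiesterase, 2.60 (0.39) and Brsk1, a serine/threonine kinase, 2.32. Brsk1 was dim at 6 hrs in vehicle, at 11, 24.5 and 26.6. With DEX Pld1, Pde2a and Brsk1 had 1.43, 1.47 and 0.48, and for Pde2a and Brsk1 the times overlapped. Spred1, an inhibitor of Ras and ERK signalling, met the limit at 2 of 7 measured probe sets, while the brightest had -0.33. None of the 14 measured ERK feedback genes met it by the brightest probe set, against 0.258% higher and 0.0922% lower of all 10843 measured genes. On that list Errfi1, an inhibitor of the EGF receptor, had -1.61 and Etv5, a factor downstream of ERK, 1.07. Against replicate 4 at 6 hrs alone they had -1.02 and 1.03. Jag1, a Notch ligand, had 33, 40.8 and 40.9 at 6 hrs and 91.9, 86.1 and 83.4 at 24 hrs, a difference of 1.20 ± 0.11, and 0.17 at its brightest probe set. The 8 measured Notch genes had a median difference of 0.71 in vehicle, of 0.19 against replicate 4 at 6 hrs alone, and of -0.04 against that replicate with DEX.

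Tsc22d3, the glucocorticoid-induced leucine zipper protein, had 82.3, 53.1 and 89 at 6 hrs and 209, 218 and 280.1 at 24 hrs in vehicle, a difference of 1.68 ± 0.27, and its other probe sets had 1.19 and 0.28. With DEX the same probe set was at 945, 897 and 2219 at 6 hrs and 1581, 1784 and 1839 at 24 hrs, above every vehicle array at both times, and replicate 4 at 6 hrs was above all 3 arrays at 24 hrs. No other of the 16 measured glucocorticoid target genes met the limit, which 0.258% of all 10843 measured genes met in the higher direction. The median of the list was -0.04. Per1, a clock gene and a target of the receptor, had 0.54, and Fkbp5, a co-chaperone of it, 0.40. Gstm1, a glutathione transferase, had 7.14, 21.8 and 38.1 at 6 hrs and 118, 95 and 99.3 at 24 hrs, a difference of 2.52 ± 0.72, and 1.10 at its brightest probe set. Fkbp4, a co-chaperone of steroid receptors, was just inside the limit with 40, 47.9 and 40 at 6 hrs and 96.5, 101 and 101 at 24 hrs at a dim probe set, while its brightest had 0.01. With DEX the dim probe set had 0.11, and the times overlapped. None of the 18 measured heat shock genes met the limit by the brightest probe set, against 0.258% higher and 0.0922% lower of all 10843 measured genes. Hspa1a and Hspa1b, both HSP70, had -1.27 and -1.17, and -0.32 and -0.37 against replicate 4 at 6 hrs alone. Stac2, an adaptor of calcium channels, had 1.30, and 0.56 with DEX, where the times overlapped.

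A pair of genes of the cytoskeleton and of cell contacts was on the lower side, and a filament gene of muscle on the higher. Cald1, which binds actin and inhibits myosin, had 2209.8, 1913 and 1699 at 6 hrs and 609, 583 and 753 at 24 hrs, a difference of -1.58 ± 0.16. Of its 3 other probe sets, a dim one had -0.92, and those brighter than this one had -0.05 and 0.60. Cgnl1, a junction protein, had 1034, 794 and 580 at 6 hrs and 262, 268 and 247 at 24 hrs, with -1.60 ± 0.24, and 1.35 at its other probe set. Mpzl3, an adhesion-like membrane protein, had -1.32 and Rnf227, a ring finger protein, -1.39 (-0.68 at its other probe set). Des, the intermediate filament protein of muscle, was higher at 24 hrs with 7.15, 7.32 and 12.7 at 6 hrs and 89.9, 30.5 and 46.7 at 24 hrs, and with DEX the times overlapped at 4.82, 7.75 and 54.8 at 6 hrs and 19, 10.9 and 49.1 at 24 hrs. It was chosen after its values were seen. It was 1 of 16 skeletal muscle markers, of which 12 had a mean of at least 50 and Myf5 and Myf6 did not, and the summed intensity of all 16 was 1224 to 1835 at 6 hrs and 816 to 2557 at 24 hrs. For 3 of the 12, all 24 hrs arrays lay above those at 6 hrs, and for none below. These were Des, Ckm, the muscle creatine kinase (33.7 ± 7.62 to 86.6 ± 6.53), and Tnnt3, a troponin (55.0 ± 15.7 to 105 ± 7.11). Of all probe sets tested, 33.5% did not overlap between the times in either direction, so 3 of 12 does not set the muscle markers apart. In such bulk cultures fewer cells of a type and less RNA per cell cannot be told apart, and the part of muscle cells in the result was not tested.

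Of the 38 gene lists, 5 held a gene that met the limit by its brightest probe set, 5 genes of 637 in all, 3 higher and 2 lower (0.471% and 0.314%, against 0.258% and 0.0922% of all 10843 measured genes), and 9 held 1 by any measured probe set, 10 genes in all. The remaining 29 lists, cartilage, hypertrophic, clock, cell cycle, cholesterol, p53 and immediate early genes among them, held none. The median difference of the 32 measured cartilage genes was 0.23, that of the 16 hypertrophic and mineralization genes 0.45 and that of the 22 immediate early and AP-1 genes -0.33. Against replicate 4 at 6 hrs alone these were -0.02, -0.06 and -0.30. The median of all measured genes was 0.05, and 0.06 against replicate 4.

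The 60 higher probe sets had a low signal, and the 83 often differed in size from other probe sets of the same genes. The median mean intensity at the higher time was 105 for the 60 higher probe sets and 337 for the 23 lower ones, against 218 over all tested, and the mean of the lower time was under 50 for 42 of 60 and 14 of 23. Of 58 other measured probe sets of the higher genes 42 had the same sign, with a median difference of 0.36, and of 26 others of the lower genes 16, with a median of -0.35. The brightest probe set was the one that met the limit for 28 of 54 higher and 10 of 19 lower genes. However, only 30 of the 54 and 13 of the 19 had another measured probe set that did not meet it. In the rest the brightest met it by default. Among the 30 the brightest met it only for Mau2, Tom1l2, Tsc22d3 and Vegfd. Among the 13 it did so only for Cgnl1, Hbegf, Prrc2c and Sox11. The brightest had the opposite sign for 8 of the 30 and 2 of the 13. Genomic length was close to that of all genes tested, with medians of 25.8 kb for the higher and 22.3 kb for the lower genes against 24.0 kb. Probe sets marked as matching several transcripts were 8 of 60 and 1 of 23, against 14.6% of all.

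**Figure D4:**
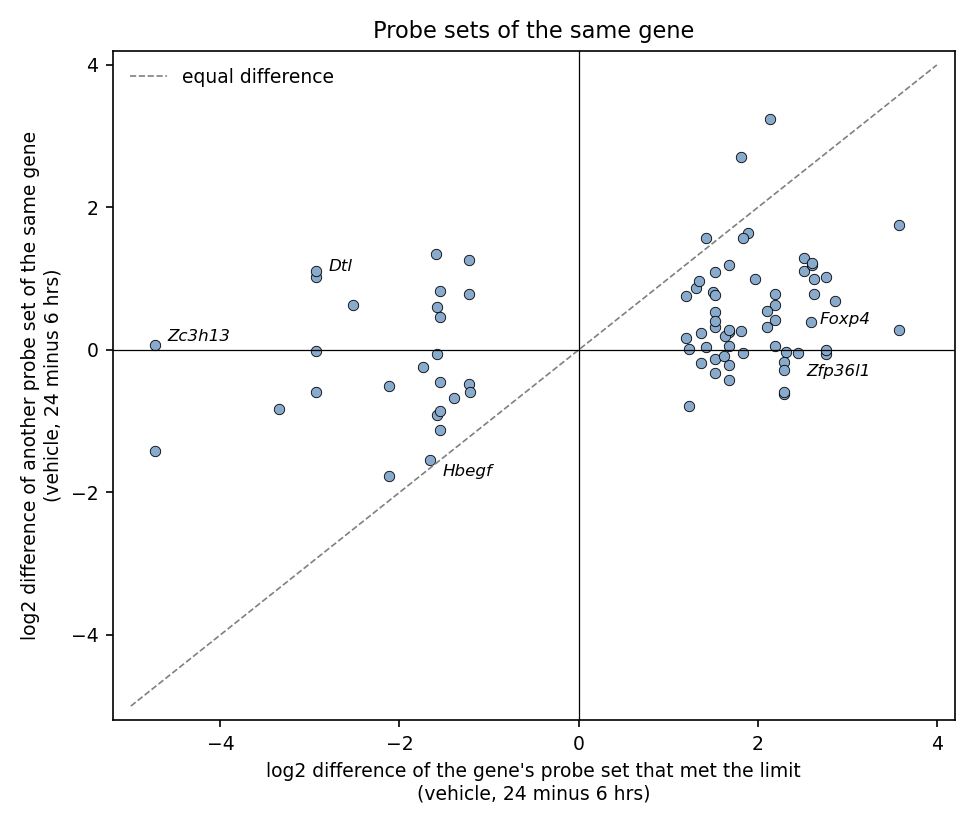
Each point is a measured probe set that did not meet the limit, with its own log2 difference (24 minus 6 hrs, vehicle, means of 3 arrays) on the y axis and that of its gene's probe set that met the limit on the x axis. Most points lie closer to 0 than the line of equal difference, and 16 of 58 on the right and 10 of 26 on the left have the opposite sign.

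Distance from 24 hrs depended on the 6 hrs array. For the 60 higher probe sets the median log2 distance of the 24 hrs mean from vehicle replicates 1, 2 and 4 was 1.97, 1.74 and 1.48, and for the 23 lower ones it was -2.32, -1.93 and -1.63. Over all probe sets tested it was 0.05 from replicate 4 and 0.14 from the mean of the others. With DEX the 3 medians were 1.54, 1.33 and 0.27 for the higher and -1.87, -1.95 and -0.70 for the lower probe sets, so that DEX replicate 4 lay nearest to 24 hrs by these medians. It was the nearest 6 hrs array for 53 of 60 and 23 of 23 with DEX, and for 38 of 60 and 16 of 23 in vehicle, which the rule had used and where the share over all 6816 probe sets without overlap was 65.5%. Taken alone, DEX replicate 4 was at least 2-fold from every DEX array at 24 hrs for 7 of 60 and 5 of 23, against 0.979% and 0.266% of all probe sets tested in vehicle.

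**Figure D5:**
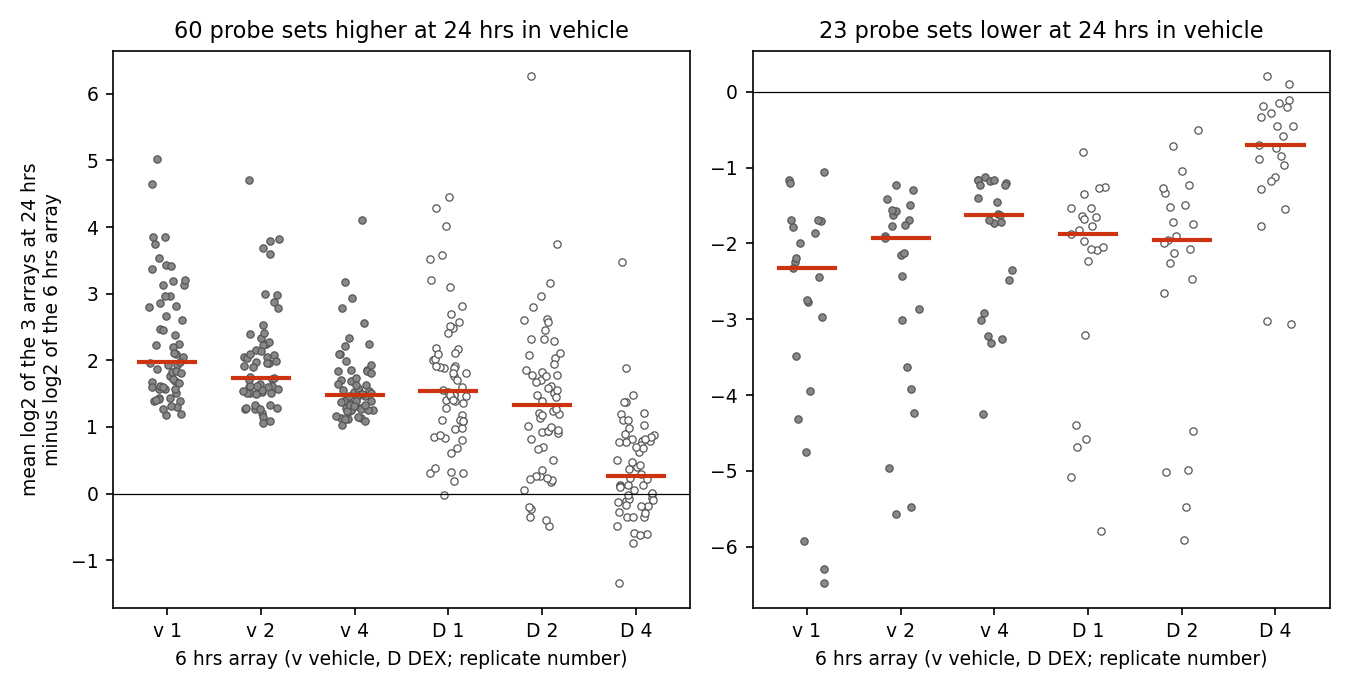
Each point is 1 of the 60 higher (left) or 23 lower (right) probe sets, with the mean log2 intensity of the 3 arrays at 24 hrs minus that of 1 array at 6 hrs on the y axis, vehicle filled and DEX open, and red lines at the medians. The medians of DEX replicate 4, at 0.27 and -0.70, lie nearest to 0.

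Tested with limma on the 6 DEX arrays alone, 0 of 20034 probe sets passed an adjusted p of 0.05 (0%). Those with an unadjusted p under 0.05 and 0.01 in limma were 5451 and 1378. A test with unequal variances at the 2 times passed 0 after the same adjustment, and 2417 and 491 at these unadjusted thresholds. Of the 60 and 23 probe sets, 45 and 22 reached a mean of 50 with DEX and were tested, and none passed, with limma's adjusted p from 0.0691 (Trmt61a) to 0.783. In their direction of vehicle, 32 and 18 had an unadjusted p under 0.05, against 17% and 10.2% of all probe sets tested. The limma values for the 5 lower genes with DEX were -1.91 ± 0.22 (adjusted p = 0.0691) for Trmt61a, -1.69 ± 0.23 (0.0866) for Sox11, -1.75 ± 0.27 (0.0972) for Hbegf, -4.39 ± 0.72 (0.101) for Zc3h13 and -4.77 ± 0.79 (0.101) for Esm1. With the spread taken from all 12 arrays, 179 and 46 probe sets passed with DEX (0.893% and 0.23%), 7 of the 60 and 7 of the 23 among them. The 7 lower ones were the same 5 genes with Rnf227 and Mpzl3, and the 7 higher ones Nupr1, Nfia, Rap1gap, Foxd1, Zfp385c, Flot2 and a probe set without a single symbol. In that fit the adjusted p was 0.00492 for Trmt61a, 0.00949 for Sox11 and 0.0413 for Nupr1, and the spread included the vehicle arrays that had chosen the probe sets. In vehicle, limma on its 6 arrays passed 0 of 20337 probe sets (0%), with 5810 and 1746 at an unadjusted p under 0.05 and 0.01. The test with unequal variances passed 0 after adjustment, and 2922 and 650 at the same unadjusted thresholds.

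The pair that moved against vehicle with DEX was 4933416O17Rik and a probe set without a symbol. 4933416O17Rik had 13.2, 8.67 and 19 at 6 hrs and 45.7, 51.7 and 53.2 at 24 hrs in vehicle and 32.8, 37.9 and 49.4 at 6 hrs and 45.9, 13.2 and 54.8 at 24 hrs with DEX, where the times overlapped, with differences of 1.95 and -0.30. The difference between the treatments was not tested. No probe set met the limit in opposite directions in vehicle and with DEX.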

How the data were processed

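RNA of vehicle and DEX cultures was measured on 12 one-colour arrays. Per the methods, GC-RMA was run by the authors in GeneSpring GX to correct and normalize the scans; the submitters' processing notes list it as GCRMA, and its version is not given in the sources used here. The values deposited by the authors are linear intensities. Background was thus modelled before deposit, which makes ratios of dim probe sets uncertain. Precision is limited by 3 arrays per group and by signal over background. The array files gave the hybridization days and wash protocols.

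Intensities were taken as deposited, and log2 was taken without a pseudocount, since none of the 541212 values was at or below 0. The limit was at least 2-fold between every array at 6 hrs and every array at 24 hrs, with a mean of at least 50 in either group. Vehicle values chose the probe sets and were not tested for them. DEX arrays were tested with the limma package, version 3.58.1 (R 4.3.3; lmFit, then eBayes, on the 6 DEX arrays; Benjamini-Hochberg adjustment over every probe set that reached a mean of 50), and the fit was first tested on simulated data. P-values measure the spread between these arrays. Tables were handled with Python 3.11.15, pandas 2.3.3 and numpy 2.4.6 and figures drawn with matplotlib 3.10.9.

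Of 45101 probe sets 34958 had 1 symbol, 932 several and 9211 none, and 34754 of the symbols were updated through RefSeq. A gene was represented in list counts by its brightest probe set over the 6 vehicle arrays. The probe sets and gene lists were chosen with earlier results of these data known. Named are the 12 genes per direction with the largest difference whose lower group had a mean of at least 20, up to 4 genes of each list, genes that the paper's results name, the 3 probe sets on each side of the limit and those that moved the other way with DEX. Marker lists for 10 cell types were checked, of which Des alone met the limit. The ranges of summed intensity overlapped between the times for every list. Alternatives were other folds, minimum means, scalings, fits and arrays left out.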

Additional observations from a re-analysis of the deposited data

How the results depend on the processing

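The number of probe sets at least 2-fold apart in vehicle was set by the limit itself and by replicate 4 at 6 hrs. Against 60 higher and 23 lower, a 1.5-fold limit gave 427 and 172, a 3-fold limit 3 and 8, no minimum mean 237 and 164, a minimum mean of 200 16 and 12, 16 added to each intensity 23 and 14, centring 33 and 36, quantile normalization 28 and 45, replicate 4 alone at 6 hrs 441 and 90, and 1 probe set per gene 28 and 10. Leaving out 1 array gave 73 to 1939 higher and 25 to 623 lower, the highest without vehicle 6 hrs replicate 4; leaving out vehicle 6 hrs replicate 2 (96 and 35) or vehicle 24 hrs replicate 1 (90 and 47), 2 (120 and 42) or 4 (117 and 50) also moved a count over 1.5-fold. Leaving out the 18S controls, an alternative chosen after seeing the data, gave 20 lower. The genes of the lists that met the limit were 5 by the brightest probe set and 10 by any.

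Of the probe sets chosen in the same way, those that met the limit with DEX were 5 and 5, and 64 and 12 at 1.5-fold, 0 and 2 at 3-fold, 9 and 14 with no minimum, 2 and 3 with a minimum of 200, 28 and 10 with replicate 4 alone at 6 hrs, 3 higher with centring, with quantile normalization or with 1 probe set per gene, and 1 higher with 16 added. Leaving out 1 array gave 5 to 31 higher and 4 to 16 lower: 31 and 14 without vehicle 6 hrs replicate 4, 28 and 16 without DEX 6 hrs replicate 4, and 10 and 8 without vehicle 24 hrs replicate 4. With the probe sets kept as chosen and DEX replicate 4 alone at 6 hrs, added after seeing the data, they were 7 and 3, since 2 lower probe sets had under 50 on that array, and 7 and 5 with no minimum.

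The limma counts rested on the same arrays. In vehicle the 0 and 0 calls became 10 and 3 with all 12 arrays in 1 fit, 6575 and 4399 with array quality weights, which did not converge, and 219 and 25 without 6 hrs replicates 1 and 2, where the lone array was assumed to vary like the other groups. Leaving out 1 array gave 0 to 5939 and 0 to 4018, above 0 only without vehicle 6 hrs replicate 4. With DEX the 0 and 0 of the 60 and 23 became 7 and 7 with all 12 arrays in 1 fit, where 179 and 46 of all 20034 passed. They became 41 and 21 with array quality weights, where 7954 and 6450 of all 20034 passed, most of the probe sets tested. With 1 array left out they were 0 to 40 and 0 to 21, above 0 only without DEX 6 hrs replicate 4. In that fit 5979 and 4159 of all 20168 probe sets passed. The fit without 6 hrs replicates 1 and 2 was also run for DEX, where replicate 4 was the lone array at 6 hrs. A lone array has no spread of its own, so only effect sizes are given for DEX. Against DEX replicate 4 the median difference was 0.27 for the 60 and -0.70 for the 23. Against vehicle replicate 4 these medians were 1.48 and -1.63. Deviations of same-numbered vehicle arrays across time correlated at 0.07, -0.02 and -0.05 and those of DEX arrays at 0.10, -0.03 and 0.08. These values cannot decide whether replicate numbers pair the arrays. At 6 hrs replicate 4 differed from replicates 1 and 2 in hybridization day, wash protocol and signs of RNA quality. With the replicate block limma passed 0 probe sets in vehicle and 0 of the 60 and 23 with DEX. No filter, 16 added, both scalings and the test with unequal variances also left these limma counts at 0. Of 350 values of the named genes under other settings, 309 moved by less than the spread between arrays, 41 by more, and none changed sign. The limit fixed the sign in advance wherever arrays were left out or 16 was added. Only the scalings could have changed it. The causes were not tested.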
